A study of Homo sapiens with 8 samples.

Results

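The collagen, laminin and integrin genes of epithelial ovarian cancer cells were examined with and without silencing of SFPQ, a nuclear RNA- and DNA-binding splicing factor. The set held 47 genes chosen by name, 21 collagen, 9 laminin and 17 integrin genes, of 20499 genes named on the arrays. A gene was tested if 1 or more groups had both arrays well above background for its brightest probe, which 43 of the 47 genes and 15547 genes in all passed. COL1A2, COL3A1, COL6A3 and ITGA2 did not pass and are not counted below. Total RNA of 2 established ovarian cancer lines, MDAH (MDAH-2774) and SKOV3, was hybridized to 8 single-colour Agilent arrays, in 4 groups of 2. For each line there were 2 control arrays and 2 arrays of silenced cells, which carried lentiviral sh-SFPQ#2 (1 array) or sh-SFPQ#3 (1 array) and were selected with puromycin, so that the spread of a silenced group includes any difference between the shRNAs. The labels mark both control samples as control shRNA, whereas in the methods 1 control of a line is parental and the other sh-ctrl, and "control" here means only that SFPQ was not silenced. The labels name no treatment. Nothing in the labels says that the arrays of a group came from separate cultures, so that p-values measure only the spread between these arrays, which may be technical.

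Collagens are triple-helical proteins of the extracellular matrix. The fibrillar ones build fibrils, type IV collagen forms the network of basement membranes, and others link fibrils, anchor epithelia or span the cell membrane. Laminins are trimers of an alpha, a beta and a gamma chain that make up the other network of the basement membrane. Integrins are receptors of an alpha and a beta chain that bind these ligands and join them to the actin cytoskeleton, and which matrix a cell holds on to depends largely on the alpha chain. Ovarian cancer cells meet this matrix when they attach to the mesothelial lining of the peritoneum.

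The type IV collagen genes lie in head-to-head pairs, and their upstream sequences are shown because the results below turn on all 3 pairs. The sequences come from RefSeq (GRCh38.p14), whose table held 35 of the 47 genes. They are read on the plus strand up to the base before the start of the second gene named, and capitals mark the GC box (GGGCGG) and the CCAAT box (CCAAT) on either strand. COL4A1 and COL4A2 start 126 bases apart, and the whole stretch between them, chr13:110307158-110307283, is printed. COL4A6 and COL4A5 start 379 bases apart at the closest start of COL4A6, and 250 bases, chrX:108439588-108439837, are printed. COL4A4 and COL4A3 start 418 bases apart, and 250 bases, chr2:227164374-227164623, are printed.
COL4A1 and COL4A2: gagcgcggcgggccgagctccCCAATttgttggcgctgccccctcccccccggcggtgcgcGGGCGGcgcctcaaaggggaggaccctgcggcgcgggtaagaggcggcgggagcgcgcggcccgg
COL4A6 and COL4A5: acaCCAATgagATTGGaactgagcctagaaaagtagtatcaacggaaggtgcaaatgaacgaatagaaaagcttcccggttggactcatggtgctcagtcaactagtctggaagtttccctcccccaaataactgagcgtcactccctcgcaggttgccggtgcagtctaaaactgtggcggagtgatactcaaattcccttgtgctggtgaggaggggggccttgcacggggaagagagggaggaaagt
COL4A4 and COL4A3: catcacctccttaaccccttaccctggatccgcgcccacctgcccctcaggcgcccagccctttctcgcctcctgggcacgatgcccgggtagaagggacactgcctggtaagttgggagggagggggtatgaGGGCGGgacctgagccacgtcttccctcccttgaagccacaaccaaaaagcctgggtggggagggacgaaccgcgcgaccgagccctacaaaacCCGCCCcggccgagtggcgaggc
The stretch between COL4A1 and COL4A2 held 1 GC box and 1 CCAAT box, that of COL4A5 held 2 CCAAT boxes and no GC box, and that of COL4A3 held 2 GC boxes and no CCAAT box. TATAAA was found in none of the printed stretches. Within 250 bases before the start, a GC box was present in 42.3% of 27305 promoters in the table, a CCAAT box in 33.0% and TATAAA in 11.1%. Of the 35 promoters of the set, 21 held a GC box, 7 a CCAAT box and 5 TATAAA. The median GC content of these 250 bases was 64.4% in the set and 58.0% over all promoters. These matches describe letters in a window and no binding was measured.

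Levels are given below as the log2 signal of a gene's brightest probe minus the 75th percentile of its array, so that each unit is a doubling, and levels of different genes cannot be compared. The 75th percentile ranged from 387 to 496 on 7 arrays and was 244 on the MDAH sh-SFPQ#3 array, the dimmest, and 47.7% to 57.0% of the probes were well above background. SFPQ (NM_005066) had levels of 3.64 and 3.91 in MDAH controls and of 2.45 (sh-SFPQ#2) and 2.10 (sh-SFPQ#3) after silencing, and of 4.84 and 4.66 against 3.01 and 2.48 in SKOV3 cells. It fell in both lines, with a log2 change of -1.50 (standard error 0.23, adjusted p = 0.0328, limma) in MDAH and of -2.01 (0.23, adjusted p = 0.0299) in SKOV3 cells. EPCAM, KRT7, KRT8, KRT18 and KRT19 were well above background on all 8 arrays, and CDH1 on none of the SKOV3 control arrays and on both SKOV3 silenced arrays. Of the ovarian cancer markers, PAX8 and FOLR1 were well above background everywhere, WT1 in MDAH cells alone, MUC16 in silenced SKOV3 cells alone and MSLN in no group. MUC16 had -4.15 and -4.89 in SKOV3 controls against -2.80 and -2.43 after silencing (1.90, adjusted p = 0.0644, limma), and its fitted average passed (adjusted p = 0.0395) with no MDAH array well above background. It entered the test only through the silenced SKOV3 arrays, so that the background filter favoured a rise. Of 6 fibroblast markers none was well above background in MDAH cells, and DCN and THY1 were in SKOV3 cells. LUM, PDGFRA, PDGFRB and FAP were below background in all groups. The log2 of the summed fibroblast signal ranged from -3.56 to -3.34 in MDAH controls, from -2.96 to -2.82 in silenced MDAH cells, from -1.84 to -1.52 in SKOV3 controls and from -1.21 to -0.93 in silenced SKOV3 cells. In MDAH cells this sums probes that are all below background, so that its values there are no level. In SKOV3 cells DCN had -3.90 and -3.85 in controls against -1.82 and -2.18 after silencing, and THY1 -2.20 and -2.76 against -2.89 and -3.79, in the opposite direction. Of the haematopoietic markers given here, PTPRC, CD14 and CD68 were well above background on all 8 arrays and CD3E on none, and of 5 endothelial markers CDH5 was on all 8. The part of these marker genes in the results was not tested. In such bulk samples, fewer cells of a kind and less RNA per cell cannot be told apart.

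The first comparison asked which matrix and receptor genes the unsilenced lines carry. MDAH and SKOV3 controls differed in 30 of the 43 genes tested (limma, adjusted p under 0.05), 12 higher and 18 lower in MDAH cells. Over all genes, 57.5% passed, 26.8% higher and 30.7% lower in MDAH. Collagens divided evenly, with 8 higher and 8 lower, as did laminins, with 4 and 4, and integrins had none higher and 6 lower. The median difference was -0.27 over the set and -0.05 over all genes.

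**Figure D1:**
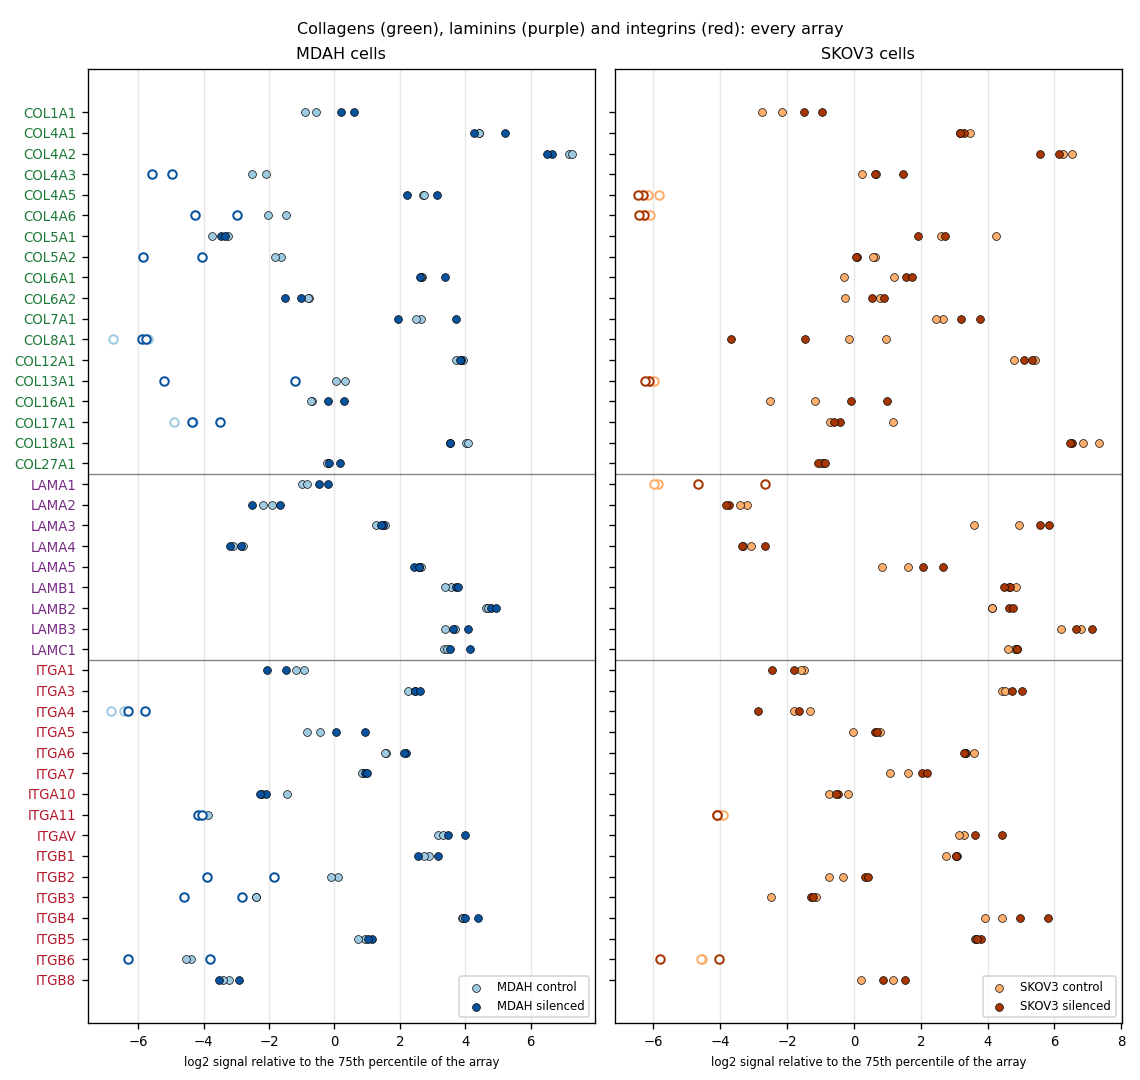
Level of each of the 43 genes tested on every array (x axis, log2 signal relative to the array's 75th percentile), MDAH cells on the left and SKOV3 cells on the right. Light points are controls, dark points silenced cells, and open points belong to a group that was not well above background on both arrays. COL4A5, COL4A6 and COL13A1 have filled points in MDAH controls and open points in SKOV3 cells, whereas COL8A1 and ITGA4 show the reverse.

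Among the chains of the basement membrane network, COL4A5 had levels of 2.72 and 2.73 in MDAH controls and of -5.83 and -6.18 in SKOV3 controls, where neither array was well above background. It was at least 105-fold higher in MDAH cells (adjusted p = 3.19e-06), a bound that sets the mean of the bright group against the lowest signal counted as well above background on each dim array, or the probe's own signal if higher. Such bounds hold for this background correction, since with normexp the difference was smaller, 5.56 on the log2 scale for COL4A5 and 1.56 for COL4A6, and still passed. COL4A6, its partner on the X chromosome, had levels of -2.03 and -1.49 against -6.26 and -6.12, at least 4.68-fold higher in MDAH (adjusted p = 0.000165). Of the controls, both genes of the pair were thus detected in MDAH alone. COL4A6 entered the test only through that group, so that the background filter favoured a higher value there. COL4A1 (4.41 and 4.43 against 3.48 and 3.17) and COL4A2 (7.16 and 7.25 against 6.53 and 6.25), the widespread chains, were 2.14-fold (adjusted p = 0.0202) and 1.76-fold (adjusted p = 0.0174) higher in MDAH. COL4A3 (-2.11 and -2.53 against 0.67 and 0.24) was lower in MDAH by a log2 difference of -2.77 (0.35, adjusted p = 0.000700), and COL4A4, its partner and no member of the set, by -1.26 (adjusted p = 0.0284). In each of the 3 pairs the 2 genes differed between the lines in the same direction.

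Of the fibrillar collagens, COL5A1 had levels of -3.25 and -3.75 in MDAH and of 4.25 and 2.62 in SKOV3 controls, a log2 difference of -6.94 (standard error 0.53, adjusted p = 7.72e-05). COL5A2, which joins it in type V collagen, was lower in MDAH by -2.33 (0.51, adjusted p = 0.00732). COL1A1, the main chain of type I collagen, was higher in MDAH by 1.73 (0.29, adjusted p = 0.00230), while its partner COL1A2 was not tested. COL27A1 was higher in MDAH by 0.75 (adjusted p = 0.00805). The fibrillar genes tested thus went both ways, 2 higher and 2 lower.

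COL8A1, a short-chain network collagen, had levels of 0.95 and -0.15 in SKOV3 controls and was not well above background in MDAH controls (-6.78 and -5.69), so that it was at least 38.7-fold lower in MDAH (adjusted p = 0.000408), a bound that normexp did not reach (-3.04 on the log2 scale, adjusted p = 0.000247). COL17A1, a transmembrane collagen of hemidesmosomes, had levels of -0.71 and 1.17 in SKOV3 and of -4.91 and -4.31 in MDAH controls, where 1 of 2 arrays was well above background, a log2 difference of -4.84 (standard error 0.61, adjusted p = 0.000642). COL13A1, another transmembrane collagen, showed the reverse, with 0.06 and 0.31 in MDAH and -6.11 and -5.97 in SKOV3 controls, at least 18.0-fold higher in MDAH (adjusted p = 0.00298). With normexp COL13A1 stayed below its bound and COL17A1 had -2.79, and both passed. COL13A1 entered the test only through its MDAH controls, so that the background filter favoured a higher value there. COL6A1 and COL6A2, neighbouring genes whose products join in type VI collagen, differed in opposite directions. COL6A1 had 2.68 and 2.65 in MDAH against 1.21 and -0.28 in SKOV3 controls (difference 2.20, standard error 0.48, adjusted p = 0.00727), and COL6A2 was lower in MDAH by -1.04 (0.36, adjusted p = 0.0415). COL18A1, the basement membrane multiplexin, was lower in MDAH by -3.04 (0.19, adjusted p = 2.97e-05), and COL12A1, a fibril-associated collagen, by -1.27 (0.23, adjusted p = 0.00319).

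**Figure D2:**
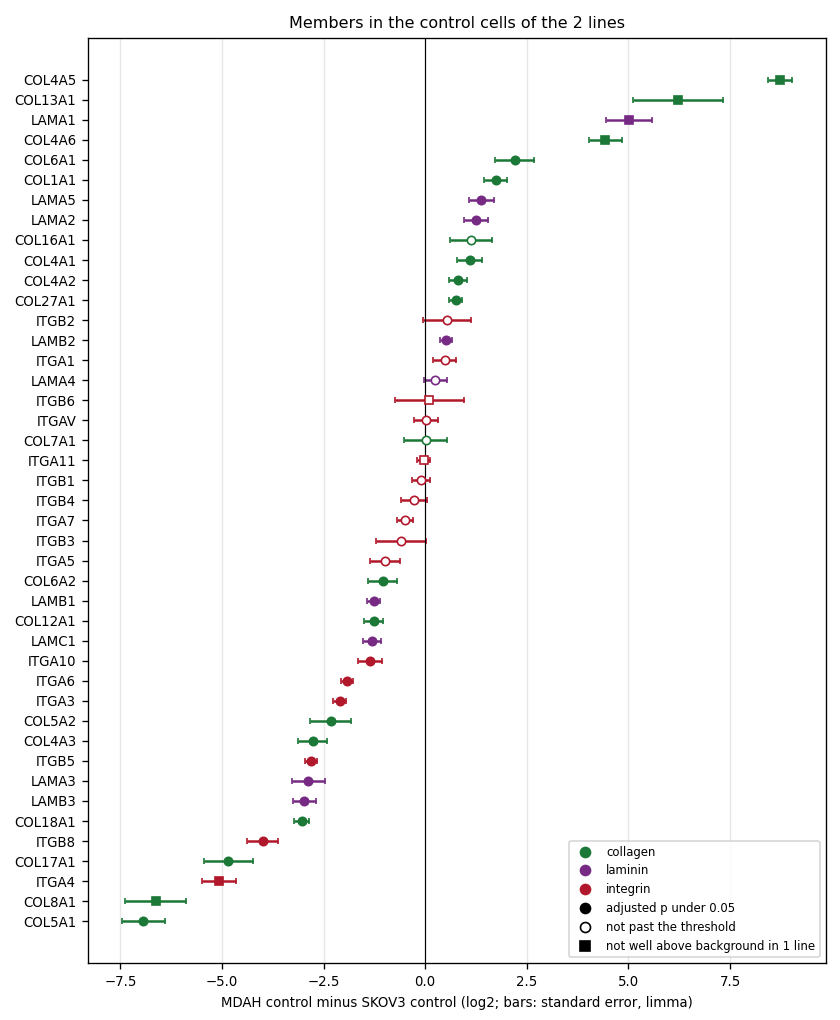
Difference between MDAH and SKOV3 controls for the 43 genes (x axis, log2), with the limma standard error as bars. Filled symbols passed the threshold and squares mark genes not well above background in 1 line. The values run from -6.94 for COL5A1 to 8.73 for COL4A5, and the filled integrins all lie left of 0.

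The laminin chains split by line. LAMA1 had levels of -0.99 and -0.84 in MDAH controls and was not well above background in SKOV3 controls (-5.88 and -5.97), at least 8.40-fold higher in MDAH (adjusted p = 0.000425), with 1.88 on the log2 scale by normexp. Another LAMA1 probe was not well above background on any control array (-5.58 and -5.29 in MDAH), so that this bound rests on the brightest probe alone. LAMA5 (1.38, adjusted p = 0.00770), LAMA2 (1.25, adjusted p = 0.00876) and LAMB2 (0.52, adjusted p = 0.0189) were also higher in MDAH. LAMA3 (-2.87, standard error 0.41, adjusted p = 0.00109) and LAMB3 (-2.97, 0.29, adjusted p = 0.000215), chains of the laminin that anchors epithelia, were lower in MDAH, as were LAMC1 (-1.32, adjusted p = 0.00233) and LAMB1 (-1.26, adjusted p = 0.000656). LAMA4 was the laminin of the set that did not pass (0.25, adjusted p = 0.461).

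Among the integrins of the set, 6 of 16 tested were lower in MDAH cells and none higher. Integrin genes outside the set went both ways. ITGA2B, ITGAX, ITGB7 and ITGAM passed as higher in MDAH controls, and ITGAD and ITGAE as lower. ITGA4, the alpha chain of a fibronectin and VCAM1 receptor, had levels of -1.80 and -1.31 in SKOV3 controls and was not well above background in MDAH controls (-6.83 and -6.43), at least 10.0-fold lower in MDAH (adjusted p = 0.000107), with -1.68 on the log2 scale by normexp. The other ITGA4 probes were not well above background on either SKOV3 control (-4.08 and -3.49, and -5.30 and -4.68). Detection of ITGA4 in SKOV3 controls and its bound thus rest on the brightest probe alone. ITGB8, which pairs with ITGAV, had 1.18 and 0.20 in SKOV3 and -3.22 and -3.40 in MDAH controls, a log2 difference of -4.00 (standard error 0.39, adjusted p = 0.000215). ITGB5, another partner of ITGAV, was lower by -2.80 (0.15, adjusted p = 1.66e-05), whereas ITGAV itself had a difference of 0.02 (0.30, adjusted p = 0.952). The laminin-binding chains ITGA3 (-2.11, adjusted p = 9.53e-05) and ITGA6 (-1.92, adjusted p = 7.51e-05) and the collagen-binding ITGA10 (-1.36, adjusted p = 0.00659) were lower too. ITGB1, the beta chain most integrins share, had 2.89 and 2.74 in MDAH and 2.77 and 3.07 in SKOV3 controls, a log2 difference of -0.10 (0.23, adjusted p = 0.724), and ITGB4, the partner of ITGA6, had a difference of -0.27 (0.32, adjusted p = 0.503).

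The controls of a line were not equally alike. SKOV3 controls lay over 1 log2 unit apart in 8 of the 43 genes (COL5A1, COL6A1, COL6A2, COL8A1, COL16A1, COL17A1, LAMA3 and ITGB3), that is 18.6% against 3.94% of all genes, and MDAH controls in 1 (COL8A1), against 1.05%. The median distance over the set was 0.35 in SKOV3 and 0.18 in MDAH controls. Silencing values of these genes in SKOV3 cells therefore rest on controls that disagree, by 1.88 for COL17A1 and 1.63 for COL5A1.

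The second comparison asked what silencing of SFPQ changed. In MDAH cells 2 of the 43 genes passed, both collagens and both lower, against 2.03% of all genes, 1.61% lower and 0.418% higher. In SKOV3 cells none passed (14 at an unadjusted p under 0.05, limma; 5 unadjusted and 0 adjusted by the methods' t-test), against 0.997% of all genes. The average change over both lines passed in 3 genes, against 5.66% of all genes, and the difference between the lines in none (8 at an unadjusted p under 0.05), against 0.0965%. The median change of the set was 0.11 in MDAH and 0.14 in SKOV3 cells, beside 0.10 and -0.04 over all genes. No laminin and no integrin passed in any of these 4 limma tests, and at an unadjusted p under 0.05 there were 0 laminins and 4 integrins in MDAH and 4 of each in SKOV3 cells.

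COL4A3, a chain found in specialised basement membranes such as that of the glomerulus, had -2.11 and -2.53 in MDAH controls and, after silencing, -4.97 (sh-SFPQ#2) and -5.59 (sh-SFPQ#3). Neither silenced array was well above background, and the gene fell at least 3.33-fold (limma adjusted p = 0.0165). In SKOV3 cells it had 0.67 and 0.24 in controls and 0.62 and 1.46 after silencing, so that the groups overlap, with a change of 0.59 (adjusted p = 0.399). The difference between the lines was -3.55 (standard error 0.50, adjusted p = 0.0774), the smallest adjusted p of the set. Its head-to-head partner COL4A4 had values of -0.19 in MDAH (adjusted p = 0.794) and 1.54 in SKOV3 cells (adjusted p = 0.117). The average of COL4A3 over both lines, -1.19 (adjusted p = 0.0461), joins changes of opposite sign, 1 of them a bound.

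COL5A2 had -1.63 and -1.83 in MDAH controls and, after silencing, -4.04 (sh-SFPQ#2) and -5.84 (sh-SFPQ#3). Neither silenced array was well above background, and it fell at least 4.59-fold (adjusted p = 0.0349), a bound that normexp did not reach (-1.17 on the log2 scale, adjusted p = 0.0136). In SKOV3 cells it had 0.63 and 0.57 in controls and 0.10 and 0.06 after silencing. The silenced arrays were below both controls there too, with a value of -0.52 (adjusted p = 0.603), and the fitted average over both lines passed (adjusted p = 0.0376), while the difference between the lines did not (adjusted p = 0.232). Both rest on silenced MDAH arrays where the gene has only a bound, and the average was -1.86 here and from -1.90 to -0.80 under other settings.

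COL1A1 was the gene that rose. It had -0.89 and -0.58 in MDAH controls against 0.20 and 0.61 after silencing, and -2.16 and -2.76 in SKOV3 controls against -1.50 and -0.96. Both silenced arrays were above both controls in each line, and the average rise was 1.18 (standard error 0.20, adjusted p = 0.0296), a 2.27-fold change, whereas neither line passed alone (1.14, adjusted p = 0.0978, and 1.23, adjusted p = 0.106). These 3 collagens encode chains of fibrillar type I and type V collagen and of basement membrane type IV collagen. Leaving out either MDAH control ended each of these calls (adjusted p 0.0967 to 0.288). With normexp background correction COL4A3 had -0.78 in MDAH cells (adjusted p = 0.126), and with quantile normalization COL5A2 did not pass there (adjusted p = 0.0738).

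**Figure D3:**
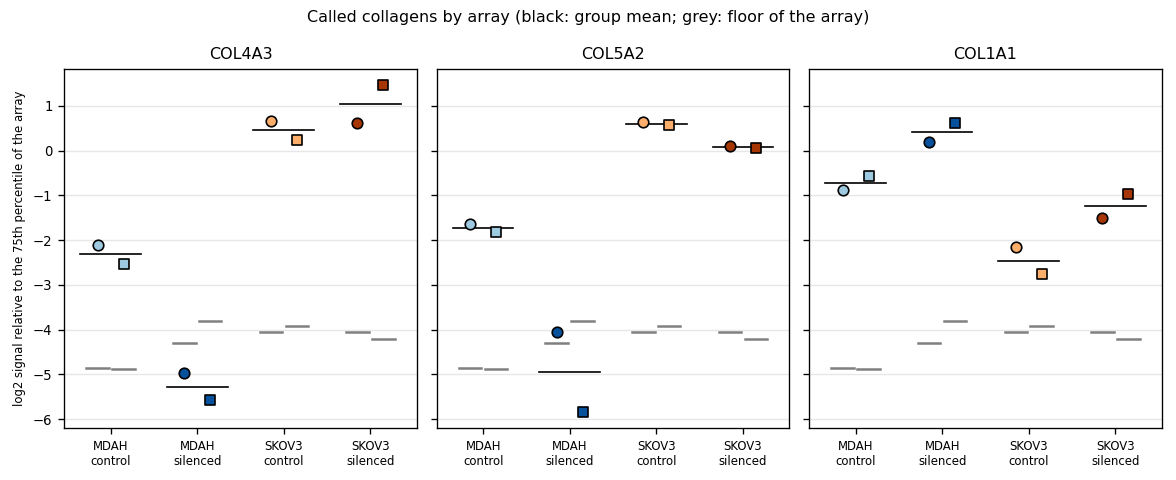
Levels of COL4A3, COL5A2 and COL1A1 on every array (y axis, log2 signal relative to the array's 75th percentile). Circles and squares are the first and second array of a group (for silenced cells sh-SFPQ#2 and sh-SFPQ#3), black lines are group means and grey lines the lowest signal counted as well above background on that array. The silenced MDAH arrays of COL4A3 lie at -4.97 and -5.59, below their grey lines, and those of COL1A1 at 0.20 and 0.61, above both controls.

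Other collagens had large values that did not pass. COL13A1 had 0.06 and 0.31 in MDAH controls against -1.20 (sh-SFPQ#2) and -5.21 (sh-SFPQ#3), where 1 of 2 arrays was well above background (-3.39, adjusted p = 0.147). COL4A6 had -2.03 and -1.49 against -2.99 and -4.27, again with 1 of 2 silenced arrays well above background (-1.87, adjusted p = 0.0763). COL13A1 and COL4A6 entered the test only through their MDAH controls, so that the background filter favoured a fall. In SKOV3 cells COL8A1 had 0.95 and -0.15 in controls against -1.47 (sh-SFPQ#2) and -3.67 (sh-SFPQ#3) (-2.96, standard error 0.75, adjusted p = 0.117). In all 3 genes the sh-SFPQ#3 array was the lowest of its line. COL16A1, a fibril-associated collagen, had -2.52 and -1.16 in SKOV3 controls against -0.08 and 0.99 (2.29, adjusted p = 0.0948) and -0.69 and -0.72 in MDAH controls against -0.20 and 0.30 (0.76, adjusted p = 0.406). A second probe of COL16A1 gave -0.38 in SKOV3 and -0.32 in MDAH cells, so that its probes disagree in direction. COL5A1 (4.25 and 2.62 against 2.72 and 1.92 in SKOV3 cells) and COL17A1 (-0.71 and 1.17 against -0.42 and -0.60) had silenced arrays that overlap the controls. Among genes well above background on all 4 MDAH arrays, the lowest changes included COL4A2 (7.16 and 7.25 against 6.65 and 6.51), COL18A1 (4.03 and 4.07 against 3.53 and 3.53) and COL6A2 (-0.78 and -0.80 against -1.03 and -1.50). COL4A2 and COL18A1 had silenced arrays below both controls in SKOV3 cells as well, with averages of -0.57 (adjusted p = 0.0779) and -0.55 (adjusted p = 0.0615).

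**Figure D4:**
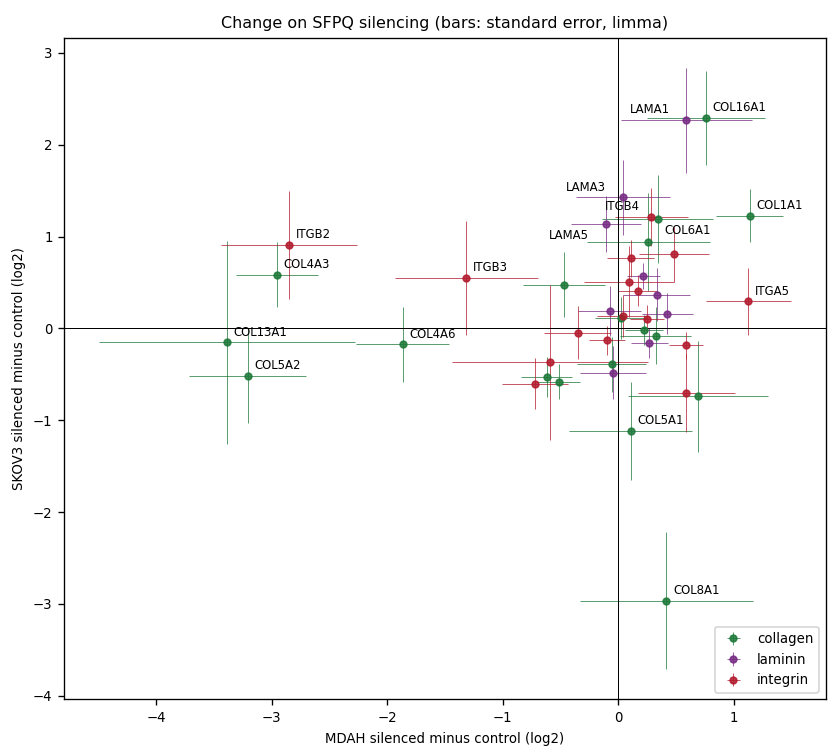
Change on silencing in MDAH cells (x axis) and in SKOV3 cells (y axis), both log2, with limma standard errors as bars; genes past 1 in either line are named. COL1A1 lies at 1.14 and 1.23, COL4A3 at -2.96 and 0.59 and COL8A1 at 0.42 and -2.96.

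None of the 9 laminins passed. LAMA1, below background in SKOV3 controls (-5.88 and -5.97), had -2.65 (sh-SFPQ#2) and -4.66 (sh-SFPQ#3), and 1 of 2 silenced arrays was well above background (2.27, adjusted p = 0.117). In MDAH cells it had -0.99 and -0.84 against -0.47 and -0.18 (0.59, adjusted p = 0.563). LAMA3 had 3.60 and 4.95 in SKOV3 controls against 5.57 and 5.83 (1.43, standard error 0.41, adjusted p = 0.144), and LAMA5 1.62 and 0.83 against 2.06 and 2.67 (1.14, 0.31, adjusted p = 0.131). Both had silenced arrays above both controls in SKOV3 cells, while their changes in MDAH cells were 0.04 and -0.11. The beta and gamma chains had values of 0.21 to 0.42 in MDAH and of -0.16 to 0.57 in SKOV3 cells.

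None of the 16 integrins passed. ITGB2, the beta chain of leukocyte integrins, had 0.10 and -0.12 in MDAH controls against -1.83 (sh-SFPQ#2) and -3.89 (sh-SFPQ#3), 1 of 2 silenced arrays being well above background (-2.85, standard error 0.59, adjusted p = 0.0698). In SKOV3 cells it had -0.75 and -0.34 against 0.32 and 0.41 (0.91, adjusted p = 0.434), and the difference between the lines, -3.76, did not pass (adjusted p = 0.186). CD68, a macrophage marker well above background on all arrays, was higher on both silenced MDAH arrays, at 2.29 and 2.36, than on both controls (1.08, adjusted p = 0.140, limma). The other haematopoietic markers detected in MDAH cells had silenced arrays that overlap the controls. PTPRC had -2.97 and -3.19 in controls against -3.51 and -3.01, and CD14 -0.70 and -0.64 against -0.68 and -0.70. The part of these markers in the result for ITGB2 was not tested. ITGB3 had -2.40 and -2.38 in MDAH controls against -2.83 and -4.59, 1 of 2 silenced arrays being well above background (-1.32, adjusted p = 0.254). ITGA5, the alpha chain of the fibronectin receptor, had -0.83 and -0.44 in MDAH controls against 0.05 and 0.94 (1.12, standard error 0.37, adjusted p = 0.148). ITGB4 had 4.43 and 3.92 in SKOV3 controls against 4.97 and 5.80 (1.21, 0.32, adjusted p = 0.124). ITGA1, a collagen receptor chain, had -1.17 and -0.93 in MDAH controls against -1.48 and -2.07 (-0.72, adjusted p = 0.195), and ITGA4 -1.80 and -1.31 in SKOV3 controls against -1.65 and -2.87 (-0.70, adjusted p = 0.395). The other ITGA4 probes, below background in SKOV3 controls, gave 0.35 and 0.39. ITGB1 had values of 0.04 in MDAH and of 0.14 in SKOV3 cells (standard error 0.23 in each).

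Without a test, the arrays can be set side by side. In MDAH cells both silenced arrays were above both controls for 14 of the 43 genes, against 35.6% of all genes, and below both for 11, against 21.4%. In SKOV3 cells they were above for 15, against 25.9%, and below for 11, against 32.1%. In both lines they were above for 9 (COL1A1, COL16A1, LAMA1, LAMB2, LAMC1, ITGA7, ITGAV, ITGB4 and ITGB5), against 12.4% of all genes, and below for 6 (COL4A2, COL4A6, COL5A2, COL13A1, COL18A1 and ITGA1), against 10.3%. They lay on opposite sides in the lines for 3 (LAMA5, ITGA6 and ITGB2), against 11.8%. All genes below in both lines were collagens apart from ITGA1, and the 9 above held 2 collagens, 3 laminins and 4 integrins. COL4A6 and COL13A1 were not well above background on any SKOV3 array, so that their order there carries no level.

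Each shRNA was present on 1 array per line and was not tested. sh-SFPQ#3 lay farther from the control mean than sh-SFPQ#2 in 32 of the 43 genes in MDAH cells (74.4%, against 65.6% of all genes) and in 35 in SKOV3 cells (81.4%, against 70.1%). SFPQ itself was lower on the sh-SFPQ#3 array of both lines, by 0.35 and 0.53 on the log2 scale. The shRNAs lay over 1 log2 unit apart for 7 genes in MDAH (16.3%, against 8.09% of all genes; COL4A6, COL5A2, COL7A1, COL13A1, ITGB2, ITGB3 and ITGB6) and for 5 in SKOV3 cells (11.6%, against 6.88%; COL8A1, COL16A1, LAMA1, ITGA4 and ITGB6), fewer than the 8 for which the SKOV3 controls were as far apart. Of the 7 genes in MDAH cells, all but COL7A1 were not well above background on the sh-SFPQ#3 array, the dimmest. COL5A2 and ITGB6 were on neither silenced MDAH array. In SKOV3 cells LAMA1 was not on the sh-SFPQ#3 array and ITGB6 on neither silenced array. The distances of these genes thus rest on signals near the background. COL7A1, the anchoring fibril collagen, had 1.93 (sh-SFPQ#2) and 3.72 (sh-SFPQ#3), on either side of its MDAH controls (2.63 and 2.50).

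**Figure D5:**
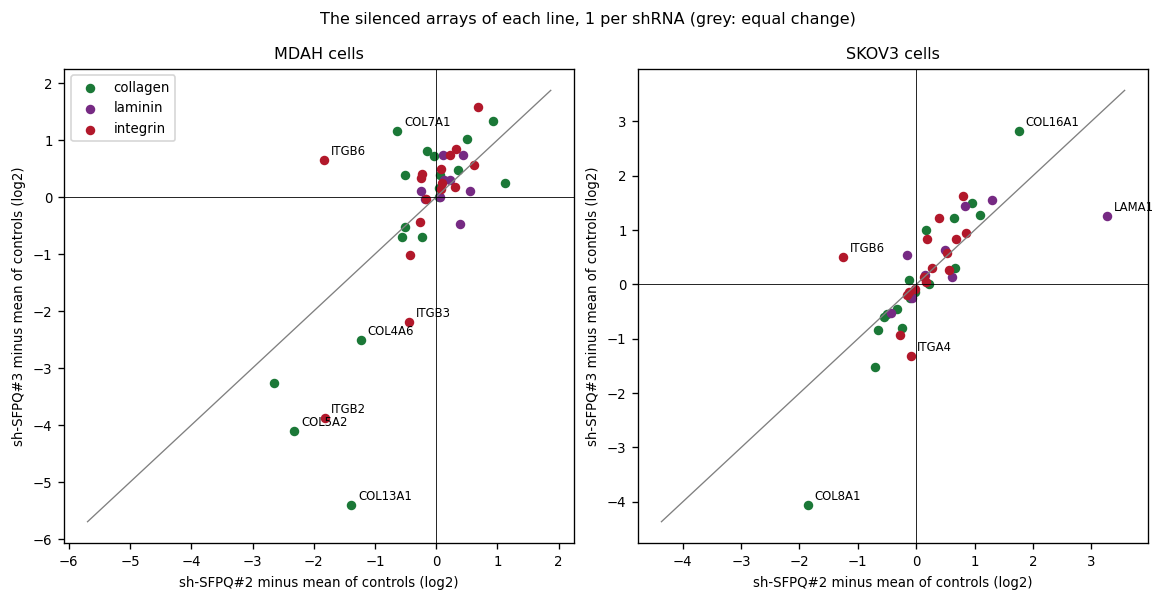
Change of each gene from the control mean with sh-SFPQ#2 (x axis) and with sh-SFPQ#3 (y axis), both log2, 1 array each; the grey line marks equal change and genes over 1 apart are named. COL13A1 and ITGB2 in MDAH cells and COL8A1 in SKOV3 cells lie below the line.

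The other genes of the matrix and adhesion pathway were described by lists that are no part of the set, to be read against the 2.03% of all genes called on silencing in MDAH, the 0.997% called in SKOV3 and the 5.66% called over both lines. Of 18 further collagen, laminin and integrin genes tested, COL25A1 fell in MDAH cells (at least 1.53-fold, limma adjusted p = 0.0289). In SKOV3 cells ITGB7 rose by 1.38 (adjusted p = 0.0448) and ITGAD fell at least 2.25-fold (adjusted p = 0.0147). COL25A1 entered the test only through its MDAH controls and ITGAD only through its SKOV3 controls, so that the background filter favoured these falls. Of 22 basement membrane and adhesive matrix genes, SMOC1, a calcium-binding matrix protein, rose at least 5.98-fold in SKOV3 cells (adjusted p = 0.00758), and TNC, which modulates adhesion, fell at least 1.22-fold there (adjusted p = 0.0440). CCN2 fell by 0.56 over both lines (adjusted p = 0.0353). Of 27 genes of collagen processing, P3H2, a collagen prolyl 3-hydroxylase, fell by 1.79 over both lines (adjusted p = 0.0267) and PCOLCE2, an enhancer of procollagen cleavage, fell by 0.63 (adjusted p = 0.0458). Of 32 integrin adaptors and kinases, KANK1 fell by 1.59 (adjusted p = 0.0369), TNS3 fell by 1.19 (adjusted p = 0.0304) and PARVA fell by 0.67 (adjusted p = 0.0326) over both lines, and none passed in a single line. Of 11 other matrix receptors, the collagen receptor MRC2 fell by 1.84 over both lines (adjusted p = 0.0395). SDC2, a syndecan, passed in the fitted average too (adjusted p = 0.0315), but no MDAH array was well above background, and in SKOV3 cells it had -3.01 and -3.31 in controls against -4.12 and -3.97 (-0.88, adjusted p = 0.106). None of 24 matrix proteases and inhibitors passed in any silencing test with limma. At an unadjusted p under 0.05 there were 8 in MDAH, 4 in SKOV3 and 10 in the average, beside 3592, 3034 and 4107 of all 15547 genes.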

How the data were processed

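The 47 genes were taken by name and the further lists were written from general knowledge, and members and lists were chosen with earlier results of these data known. The authors labelled total RNA with Cy3, scanned the arrays and deposited, per the file headers, the background-subtracted signal intensity of each spot without normalization between arrays; the headers name Feature Extraction 11.5.1.1 and the submitters' processing notes 10.7.3.1. RNA input per labelling differs between the labels and the methods. A second deposited file holds log2 values of these arrays and matched quantile-normalized log2 signals minus each probe's median and was used as an alternative; so were the deposited spot and background intensities, for normexp. There was 1 slide and 1 scan time.

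Control spots (62976 spots, 58717 kept) and outlier spots (209 to 310 per array) were left out, the spots of each of 50599 probes were averaged, and log2 signals were set relative to the array's 75th percentile. Probes were named through RefSeq accessions without versions (28170 of 30878 with an accession). Of several probes of a gene the brightest was used. Among probes past the background filter, COL12A1, COL16A1 and COL6A2 had probes of opposite sign in a silencing change. Dimmer probes of ITGA4, LAMA1 and LAMA4, which did not pass it, also differed in sign from the brightest in SKOV3 cells. limma 3.58.1 in R 4.3.3 was fitted to the 4 groups together (4 residual and 2.69 prior degrees of freedom), with Benjamini-Hochberg adjustment over 15547 genes at a threshold of 0.05; the fit was tested on simulated data. The number of arrays limits the precision. The rule for genes given array by array was: those past the threshold in a silencing test, the 4 highest and 4 lowest changes in each line among genes well above background in both groups, and the 5 highest and 5 lowest differences between the controls that passed; COL13A1, COL4A6, ITGB2 and LAMA1 in SKOV3 cells, LAMA5, ITGB1, COL7A1, ITGB3, COL4A4 and the cell type markers given were added after their values were seen. Of the other pathway lists, genes past the threshold in a silencing test were named. Alternatives were other scalings, background correction, filters, probe choice, tests, the replicate block and leaving out each array.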

Additional observations from a re-analysis of the deposited data

Results flagged for a closer look

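The limma test of the difference between the lines in the change on silencing passed for 2 genes of the further lists and for none of the 43 genes of the set. ITGAD, a leukocyte integrin alpha chain, had a difference (MDAH change minus SKOV3 change) of 4.07 (standard error 0.42, adjusted p = 0.0349), with SKOV3 controls at -2.55 and -3.37 against -6.12 and -6.28 after silencing, and with no MDAH array well above background. Its MDAH change is thus not a measured one, and a difference in response between the lines is not shown for ITGAD. SMOC1 had a difference of -2.94 (standard error 0.30, adjusted p = 0.0349), with SKOV3 levels of -4.40 and -4.14 in controls, not well above background, against -1.68 and -1.13 after silencing, and MDAH levels of -0.42 and -0.40 against -0.52 and -0.45.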

How the results depend on the processing

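The difference between the controls was called for 30 of the 43 genes, for 21 to 33 under the 11 other settings and for 25 to 31 when 1 array was left out. The counts on silencing did not keep their size. In MDAH cells (2 called) 1 gene was called with quantile normalization, median centring, the authors' log2 values, no filter on dim probes or only the 4 arrays compared, 4 with normexp, and 0 with the filter on all arrays or the methods' t-test; leaving out 1 array gave 0 to 5, with 0 without either MDAH control and 5 without MDAH sh-SFPQ#2. In SKOV3 cells (0 called) normexp gave 2 and leaving out 1 array 0 to 3, with 3 without SKOV3 sh-SFPQ#2. The average (3 called) gave 1 with quantile normalization or the authors' values, 6 with normexp, 0 with no filter, 7 with an intensity trend, and 0 to 7 when 1 array was left out, with 0 without either MDAH control or SKOV3 control 1 and 7 without either sh-SFPQ#2 array. The difference between the lines (0 called) gave 0 to 5 when 1 array was left out, with 5 without MDAH sh-SFPQ#2. With 8 arrays left out in turn, the call of COL4A3 in MDAH cells held in 5 fits, that of COL5A2 in 2 and the average of COL1A1 in 2; with normexp COL4A3 changed by -0.78. SFPQ stayed lower throughout but passed no longer with no filter, only 4 arrays or the methods' t-test (-1.50 in MDAH and -2.01 in SKOV3 cells), nor in MDAH with median centring (-1.39); leaving out 1 array gave -1.68 to -1.33 in MDAH and -2.27 to -1.74 in SKOV3 cells, and the call held in 3 of 8 fits in each. Median centring shifted the median of all genes by 0.11 for silencing in MDAH cells, 0.15 for the difference between the lines and -0.15 between controls, and normexp by -0.11 for the difference. COL17A1 in SKOV3 cells turned from -0.74 to 0.20 without SKOV3 control 2. SKOV3 genes with both silenced arrays below both controls (11) were 7 with quantile normalization or the authors' values and 6 with normexp. The methods' t-test, adjusted, called 0 of 15547 genes in either line (1961 and 1758 unadjusted). With the replicate block, 3 genes were called in MDAH, 1 in SKOV3, 7 in the average, 0 in the difference and 33 between controls; same-numbered arrays of the lines correlated at 0.08 in controls and 0.36 in silenced cells, and with 2 pairs these numbers were not taken to pair the arrays. Causes of these shifts were not tested.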
